A study of Arabidopsis thaliana with 32 samples.

Results

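The 8 genes described here encode 3 ClpB proteins of the HSP100 family and 5 chaperonins of the HSP60 family of Arabidopsis thaliana. They were chosen by gene identifier: HSP101 (AT1G74310), CLPB3 (AT5G15450), CLPB4 (AT2G25140), HSP60 (AT3G23990), HSP60-2 (AT2G33210), HSP60-3A (AT3G13860), CPN60A (AT2G28000) and CPN60B (AT1G55490). They are 8 of 27444 nuclear protein-coding genes. Each was looked up in 8 deposited lists of sites at which RNA polymerase II (RNAPII) signal was called higher in one genotype than in the other.

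The signal is ChIP-seq of RNAPII phosphorylated at Ser2 of its C-terminal domain (S2P), the form found on elongating polymerase. Whole seedlings of wild-type Col-0 and of the mutant tfiis-1, 14 days after stratification and grown in vitro, were compared at 0 min (no heat shock) and at 10 min, 30 min and 3 h of heat shock. TFIIS is an elongation factor that rescues stalled, backtracked polymerase by stimulating it to cut its own transcript. The sources used here do not give the nature of the tfiis-1 allele or the temperature of the heat shock. There were 3 ChIP libraries (biological replicates, per the design text) and 1 input library for each genotype at each time.

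For each time, one list holds sites higher in tfiis-1 (tfiis-1-higher) and the other sites higher in Col-0 (Col-0-higher). Each entry is a summit of 1 bp inside a named gene. The lists grew from 1345 to 6498 tfiis-1-higher genes and from 31 to 2957 Col-0-higher genes between 0 min and 3 h. Values per library are not in them. The depth, the spread between replicates and the size of a difference at any summit are therefore unknown, and no call has a replicate check here. A gene outside a list was not called; that says nothing about whether RNAPII was present on it. The TFIIS gene AT2G38560 was in 0 of the 8 lists; without levels per library this neither bears out nor contradicts the genotype labels.

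ClpB proteins are ring-shaped AAA+ ATPases that pull aggregated proteins apart, working with HSP70. HSP101 is the ClpB of the cytosol and nucleus and is needed for acquired thermotolerance, CLPB3 is the form of the plastid and CLPB4 that of mitochondria. HSP60 and CPN60 chaperonins form barrel-shaped complexes that enclose newly imported proteins while they fold, capped by co-chaperonins. HSP60, HSP60-2 and HSP60-3A belong to mitochondria, and CPN60A and CPN60B are the alpha and beta subunits of the plastid chaperonin, known for folding the large subunit of Rubisco.

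Of the 8 genes, 5 were in at least 1 list and 3 were in none, where 33.2% of all nuclear protein-coding genes were in at least 1. Together they held 16 summits, 13 of them tfiis-1-higher and 3 Col-0-higher. No summit of these genes was called at 0 min. Sites appeared after 10 min of heat in CLPB4, HSP60 and CPN60A, after 30 min in CPN60B alone, and after 3 h in CLPB4, HSP60, HSP60-2 and CPN60A. All 3 Col-0-higher summits came at 3 h, each at the far 3′ end of its gene. HSP101, CLPB3 and HSP60-3A were in no list.

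**Figure D1:**
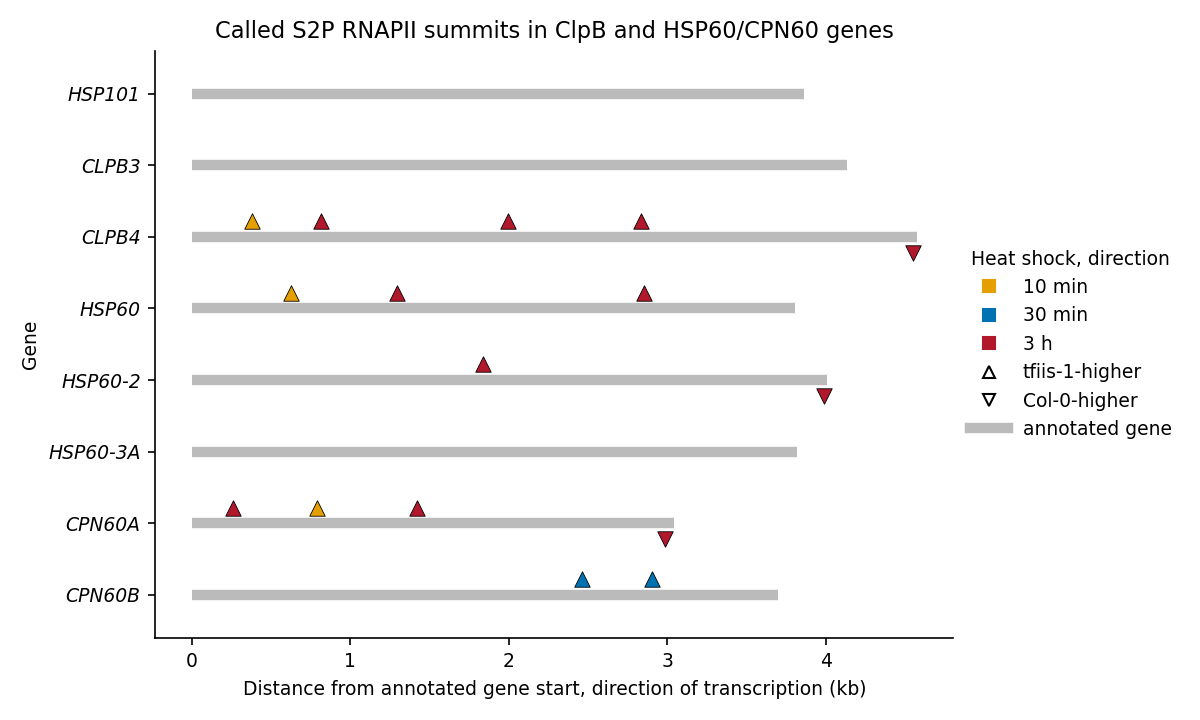
Called summits along the 8 genes, drawn to scale from the annotated start (distance in kb, grey bars are the annotated genes). Upward triangles above a bar are tfiis-1-higher and downward triangles below it Col-0-higher, coloured by the time of heat shock. The 3 Col-0-higher summits sit at gene ends, the 10 min summits lie in the first 1 kb, and HSP101, CLPB3 and HSP60-3A carry no summit.

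Among the disaggregases, the heat-induced HSP101 had 0 summits in each of the 8 lists, and so did the plastid form CLPB3. CLPB4 was the only one of the 3 ClpB genes in any list. At 10 min it had 1 tfiis-1-higher summit, at chr2:10701821 (TAIR10, minus strand), 382 bp downstream of the annotated start. As a share of the gene's length, with 0 for the start of transcription as annotated and 1 for the end, its position was 0.08. At 30 min CLPB4 was in neither list. Then 3 tfiis-1-higher summits were called in it at 3 h, at 0.18, 0.44 and 0.62 of its length, 1180 bp and 839 bp apart. The first of them lay 434 bp downstream of the 10 min summit. Of all genes tfiis-1-higher at 3 h, 22.4% held 3 or more summits and 53.9% held 2 or more, as did CLPB4, HSP60 and CPN60A of the 4 genes called here. The Col-0-higher summit of CLPB4 at 3 h, at chr2:10697650, lay 21 bp before the annotated end of the gene and 1718 bp beyond the last tfiis-1-higher summit of that time.

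Among the mitochondrial chaperonins, the 3 genes differed in their calls. HSP60 (also HSP60-3B) was tfiis-1-higher at 10 min, with 1 summit at chr3:8669398 (plus strand), position 0.16, and at 3 h, with summits at 0.34 and 0.75. It was never Col-0-higher. HSP60-2 was called only at 3 h, and then both ways. Its tfiis-1-higher summit, at chr2:14076931 (minus strand), lay at 0.46, and its Col-0-higher summit, at chr2:14074784, lay 2147 bp further downstream, 17 bp before the end of the gene. HSP60-3A was in none of the 8 lists. The sources used here do not say how reads shared by similar copies were treated, so calls on single members of the HSP60 and CPN60 families are uncertain to that extent.

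The plastid chaperonin subunits were called at different times. CPN60A was tfiis-1-higher at 10 min, with 1 summit at chr2:11927236 (plus strand), position 0.26. At 3 h its tfiis-1-higher summits lay at 0.09 and 0.47, on either side of the 10 min summit, the nearer one 530 bp away. Its Col-0-higher summit at 3 h, at chr2:11929429, lay 59 bp before the end of the gene. CPN60B, whose product assembles with that of CPN60A, was called at 30 min only, with tfiis-1-higher summits at chr1:20716797 and chr1:20716359 (minus strand). They lay at 0.67 and 0.78, 438 bp apart. Of all genes tfiis-1-higher at 30 min, 46.5% held 2 or more summits, and 7.16% were, like CPN60B, in no other list. CPN60A and CPN60B shared no list.

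The counts were set beside those of all genes in the same list. At 0 min 0 of the 8 genes were called, where 4.90% of genes were tfiis-1-higher and 0.113% Col-0-higher. At 10 min 3 of 8 (37.5%) were tfiis-1-higher, where 10.9% of genes were, and 0 were Col-0-higher, where 0.251% were. At 30 min 1 of 8 (12.5%) was tfiis-1-higher, where 16.6% of genes were, and 0 were Col-0-higher, where 3.16% were. At 3 h 4 of 8 (50.0%) were tfiis-1-higher, where 23.7% of genes were. At the same time 3 of 8 (37.5%) were Col-0-higher, where 10.8% were.

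The 8 genes are longer than most, 3043 to 4575 bp with a median of 3840 bp, against a median of 2078 bp over all genes, and genes of such length were called more often. Among the 4627 genes within that range of lengths, 16.4% were tfiis-1-higher at 10 min, 28.5% at 30 min and 37.5% at 3 h, and 15.3% were Col-0-higher at 3 h. The count at 3 h in tfiis-1 thus differs from that of genes of like length by 1 gene of 8. With so few genes, chosen with earlier results known, these shares are a description and were not tested. In the same range of lengths 47.1% of genes were in at least 1 list, against 5 of the 8.

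**Figure D2:**
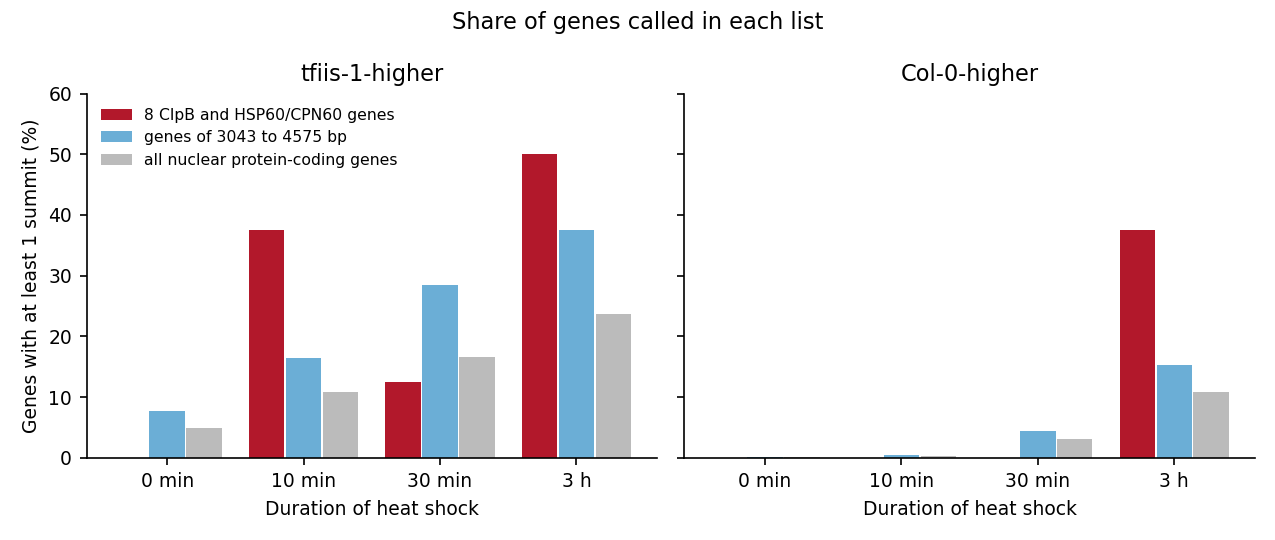
Share of genes with at least 1 summit (percent, y axis) by time of heat shock, in the tfiis-1-higher lists (left) and the Col-0-higher lists (right). Red bars are the 8 ClpB and HSP60/CPN60 genes, blue bars the genes of 3043 to 4575 bp and grey bars all nuclear protein-coding genes. The red bar is above both others at 10 min and 3 h in tfiis-1 and at 3 h in Col-0, and below both at 30 min.

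The 10 min sites of these genes lay upstream of most of that list. Over all genes, tfiis-1-higher summits of 10 min were found mostly towards the 3′ end: their median was 0.78 (quartiles 0.49 and 0.93), and the last 10% of the gene held 32.6%. The summits of CLPB4, HSP60 and CPN60A lay at 0.08, 0.16 and 0.26. Only 3.72% of the list lay as far upstream as the summit of CLPB4, 6.74% as far as that of HSP60 and 10.6% as far as that of CPN60A. In distance, they lay 382, 626 and 790 bp from the start, against a list median of 1893 bp.

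At 30 min the sites lay further downstream than at 10 min, and at 3 h they ran over more of the gene's length. The 3 h range covers 8 summits, against 3 at 10 min. The 2 summits of CPN60B at 30 min, at 0.67 and 0.78, were downstream of the list median of 0.51, with 29.8% and 17.9% of that list as far downstream. The 8 tfiis-1-higher summits of 3 h ran from 0.09 in CPN60A to 0.75 in HSP60, with a median of 0.45 against 0.40 for the list (quartiles 0.20 and 0.63). Of that list 9.45% lay as far upstream as the first summit of CPN60A, and 14.5% as far downstream as the last of HSP60. Of the 13 tfiis-1-higher summits of all times, 9 lay nearer the start than the end of the gene, and 0 lay in the last 10%. In the full tfiis-1-higher lists, 25.7% of summits at 10 min, 48.7% at 30 min and 62.0% at 3 h lay nearer the start. The last 10% of the gene held 32.6%, 7.06% and 4.23% of them at these times. As 8 of the 13 summits came from 3 h, the counts partly reflect that list, and they were not tested against these shares. The Col-0-higher summits lay 17 bp (HSP60-2), 21 bp (CLPB4) and 59 bp (CPN60A) from the gene end, against a list median of 117 bp. Of that list, 10.7% of summits lay as near the end as that of HSP60-2, and 32.5% as near as that of CPN60A.

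**Figure D3:**
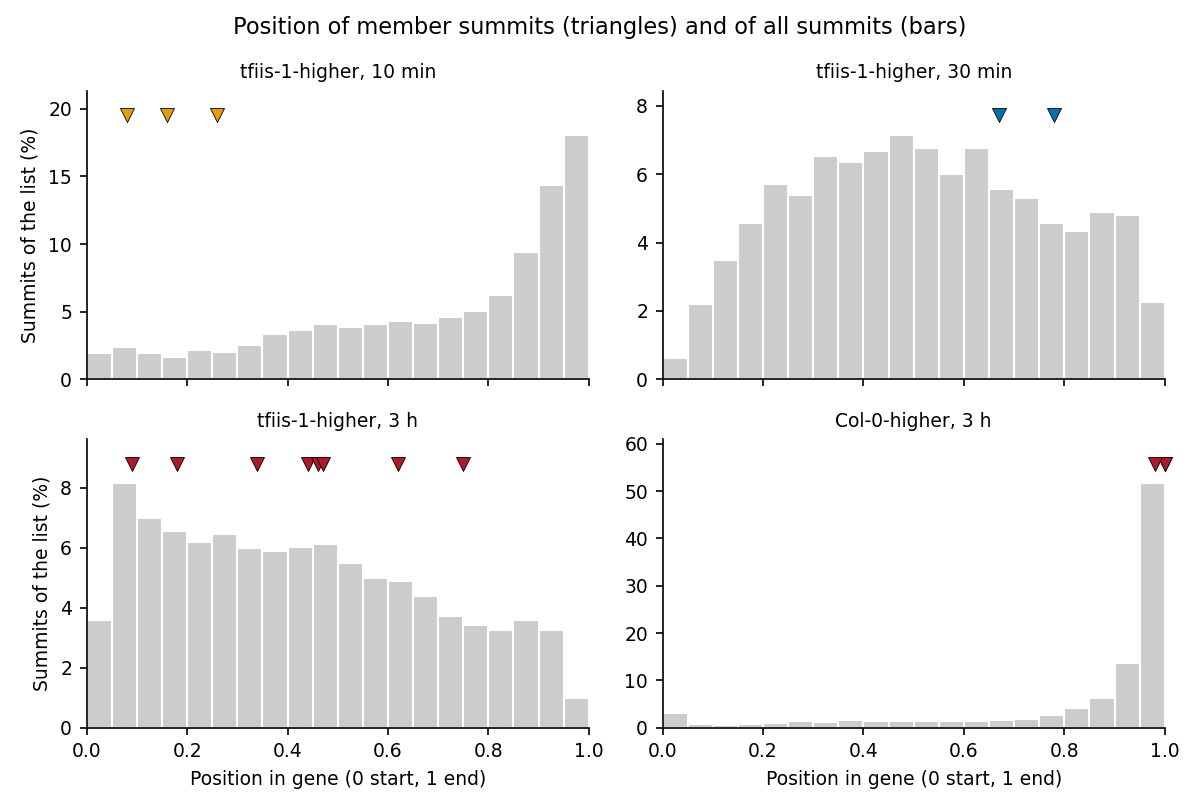
Position of summits in the gene (x axis, 0 at the annotated start and 1 at the end) in the 4 lists that hold summits of the 8 genes. Grey bars give the percent of all summits of the list in each bin, and triangles mark the summits of the 8 genes. At 10 min the triangles lie at 0.08 to 0.26, where the list is sparse, and at 3 h in Col-0 they lie at the 3′ end with most of the list (2 of the 3 triangles overlap).

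CLPB4, HSP60-2 and CPN60A were called in both directions at 3 h, where 5.75% of all genes were, a share not counted for genes of like length. They are all 3 of the Col-0-higher genes described here, and of all Col-0-higher genes of 3 h 53.4% were tfiis-1-higher too. In all 3, every tfiis-1-higher summit lay upstream of the Col-0-higher one. The same order held in 97.3% of the 1578 genes called both ways at 3 h, so it is what most of these genes showed. None of the 3 Col-0-higher summits lay inside another annotated gene, and the next annotated gene downstream was 453 bp (CLPB4), 1005 bp (CPN60A) and 1030 bp (HSP60-2) beyond the gene end. At 10 min and 30 min 0 of the 8 genes were called both ways, where 0.0510% and 1.47% of genes were.

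The calls of 10 min did not carry through to 30 min. CLPB4, HSP60 and CPN60A were tfiis-1-higher at 10 min and again at 3 h, and none of them was called at 30 min. Of the 1832 genes tfiis-1-higher at both of those times, 20.9% were not tfiis-1-higher at 30 min. The nearest 10 min and 3 h summits were 434 bp apart in CLPB4, 530 bp in CPN60A and 669 bp in HSP60, so 1 of the 3 genes had them within 500 bp, as did 56.7% of the 1832. That count rests on the distance chosen: it was 0 of 3 within 250 bp and 3 of 3 within 1000 bp. At CLPB4 and CPN60A the 10 min call was tfiis-1-higher and a call at 3 h Col-0-higher. Their sites of opposite direction were 4171 bp and 2193 bp apart, and 0 of the 2 genes had them within 500 bp, where 76.6% of the 1242 genes called in those lists did. Lists of different times come from different libraries. CLPB4, HSP60-2 and CPN60A, all Col-0-higher at 3 h, were not Col-0-higher at 30 min. The same was the case in 81.3% of the 2957 genes Col-0-higher at 3 h.

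The genes whose calls were most like those of each gene were sought among genes in exactly the same lists, by the mean absolute difference in median position over those lists. CLPB4 and CPN60A shared their 3 lists, and 97 other genes were in those lists and no others for each of them. Nearest to CLPB4 were AT1G15940 (mean difference 0.051), ROF1 (AT3G25230; 0.075), an FKBP-type co-chaperone, and HSP81-3 (AT5G56010; 0.083), a cytosolic HSP90 with closely similar copies. Nearest to CPN60A were AT1G54050 (0.046), TPX1 (AT1G65980; 0.058) and BI1 (AT5G47120; 0.060). HSP60 shared its 2 lists with 184 other genes, of which AT3G08930 (0.014), FBS1 (AT1G61340; 0.019) and AT3G63255 (0.033) were nearest. HSP60-2 shared its 2 lists with 271, and AT5G35690 (0.004), FLA2 (AT4G12730; 0.004) and RUS2 (AT2G31190; 0.009) were nearest. With up to 271 genes to choose from, small differences are found easily.

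Other genes of these protein families were followed in 3 lists of 25 genes in all, written from general knowledge; the reference table gives no symbol for some of them, which are then named by identifier only. The other Clp AAA+ genes, kin of ClpB that mostly feed proteins to the Clp protease, were tfiis-1-higher before heat in 1 of 7 cases, after 10 min in 1, after 30 min in 4 and after 3 h in 6. Over all genes the shares were 4.90%, 10.9%, 16.6% and 23.7%, and over genes of 3043 to 4575 bp they were 7.65%, 16.4%, 28.5% and 37.5%. These counts are a description and were not tested against those shares. In 3 of the 7 genes a Col-0-higher summit was called as well, each time at 3 h. The Col-0-higher share at that time was 10.8% of all genes and 15.3% of genes of 3043 to 4575 bp. CLPC1 (AT5G50920), the main ClpC of the plastid stroma, had 4 tfiis-1-higher summits at 10 min, from 0.24 to 0.98, and 3 each at 30 min and 3 h. HSP93-III (AT3G48870), the second ClpC, had 3 tfiis-1-higher summits at 3 h and a Col-0-higher one at the gene end. CLPX (AT5G53350) was the one called at 0 min, at 0.64, and had tfiis-1-higher summits at 0.65 and 0.62 at 30 min and 3 h. ERD1 (AT5G51070), or ClpD, was tfiis-1-higher at 30 min and 3 h, and AT5G49840 was tfiis-1-higher at both and Col-0-higher at 3 h, at 0.90. CLPB2 (AT4G14670), like HSP101 and CLPB3, was in 0 lists.

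The other CPN60 genes and the co-chaperonins, 9 in all, were tfiis-1-higher before heat in 1 case, after 10 min in 2, after 30 min in 2 and after 3 h in 5, to be read against the same shares. They were Col-0-higher in 1 case at 10 min, 2 at 30 min and 2 at 3 h. The Col-0-higher shares at these times were 0.251%, 3.16% and 10.8% over all genes. Among genes of 3043 to 4575 bp they were 0.389%, 4.45% and 15.3%. The Col-0-higher counts were not tested against them. Cpn60beta2 (AT3G13470), another beta subunit gene of the plastid chaperonin, was called at 10 min in both directions, tfiis-1-higher at 0.04 and Col-0-higher at 0.74. It was not called at 30 min, the only time at which CPN60B was, and at 3 h it had tfiis-1-higher summits at 0.30, 0.51 and 0.74. Cpn60beta3 (AT5G56500) was tfiis-1-higher at 30 min, at 0.28 and 0.69, and Col-0-higher at the same time at 0.98. At 3 h it was tfiis-1-higher at 0.27, 0.48 and 0.66. CPN10 (AT1G14980), the mitochondrial co-chaperonin that caps HSP60, was tfiis-1-higher at 10 min at 0.84, where the summit of HSP60 lay at 0.16, and at 3 h at 0.27. It was Col-0-higher at 0.98 at 30 min and at 0.93 at 3 h. AT3G60210 was tfiis-1-higher at 30 min and both ways at 3 h. The genes of this group in 0 lists were Cpn60beta4 (AT1G26230), AT1G23100, CHL-CPN10 (AT2G44650) and CPN20 (AT5G20720).

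Genes taken as the cytosolic CCT chaperonin, which folds actin and tubulin, were followed in the same way. Of 9, 0 were tfiis-1-higher before heat, 2 after 10 min, 6 after 30 min and 8 after 3 h, when 4 were also Col-0-higher. The tfiis-1-higher lists lengthen over the same times for all genes, as given for the other Clp genes. At 3 h 10.8% of all genes and 15.3% of genes of 3043 to 4575 bp were Col-0-higher. The counts of CCT genes were not tested against these shares. TCP-1 (AT3G20050), the alpha subunit, had tfiis-1-higher summits at 0.32, 0.41 and 0.52 at 30 min and at 0.31 at 3 h, and a Col-0-higher one at its end at 3 h. AT5G20890 and AT5G26360 were in the same 3 lists. AT1G24510 and AT3G03960 were tfiis-1-higher at 10 min, 30 min and 3 h, and their 10 min summits reached 0.98 and 0.99. AT3G02530 was called both ways at 3 h. AT5G16070 was in 0 lists. At 30 min 12 of the 25 related genes and 1 of the 8 ClpB and HSP60/CPN60 genes were tfiis-1-higher, beside 16.6% of all genes and 28.5% of genes of 3043 to 4575 bp; the difference between the families was not tested. At 10 min the 9 tfiis-1-higher summits of the related genes had a median position of 0.83, from 0.04 to 0.99. At 3 h 9 of the 25 related genes were called both ways, where 5.75% of all genes were. That share was not counted for genes of like length, and the difference was not tested. All 9 had each tfiis-1-higher summit upstream of the Col-0-higher one, as did 97.3% of the 1578 genes called both ways at 3 h.

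**Figure D4:**
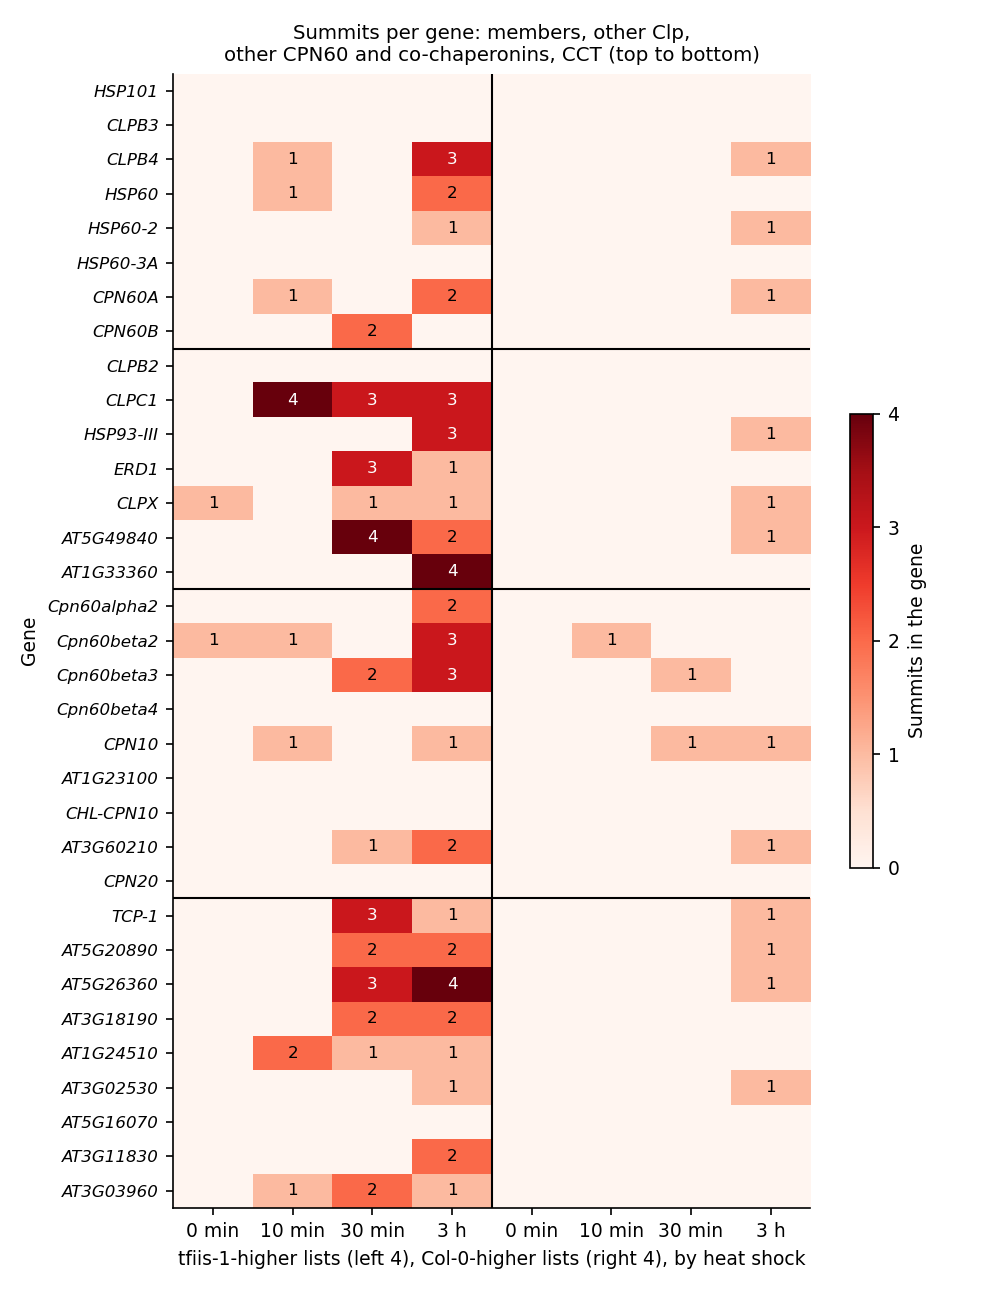
Number of summits per gene in each list, with the 8 ClpB and HSP60/CPN60 genes at the top, then the other Clp genes, the other CPN60 genes and co-chaperonins, and the CCT genes. Columns are the times of heat shock, tfiis-1-higher on the left and Col-0-higher on the right, and darker cells hold more summits (up to 4). In the tfiis-1-higher column of 30 min, 6 of 9 CCT genes and 4 of 7 other Clp genes are filled. In the same column 2 of 9 other CPN60 genes and co-chaperonins are filled, and CPN60B alone of the 8 at the top. At that time 16.6% of all genes and 28.5% of genes of 3043 to 4575 bp were tfiis-1-higher. The differences between the groups were not tested.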

How the data were processed

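The authors deposited 8 lists of 1 bp summits, one per direction and time, with 32357 lines in all. Per the submitters' processing notes, Bowtie2, FastQC, MACS3, deepTools and the build TAIR10 were used; what each did, the thresholds, the scaling, the use of inputs and any pooling of replicates are not given here. Any of these steps can change which sites are called. The deposited score of 2 lists served only in an alternative that filters on it, which has no effect here, since neither holds a summit of the 8 genes. Libraries were made with 9 PCR cycles, per the labels' protocols.

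Repeated lines were counted once. All 9114 gene identifiers matched the RefSeq table of TAIR10.1, and all 936 gene intervals that the lists give equal those of that table, so positions were computed with it. All 16 deposited lines on the 8 genes were different summits. Summit coordinates are in TAIR10, as deposited. With no value per library, no test over replicates was made. The genes, related-gene lists and naming rule (related genes in at least 2 lists, up to 6 per group; the 3 likest genes) were chosen with earlier results of these data known. Related genes in 0 lists were named in addition, outside that rule. The functions were tested on simulated data. The tools were pandas 2.3.3, numpy 2.4.6 and scipy 1.17.1 under Python 3.11.15, with figures by matplotlib 3.10.9.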

Additional observations from a re-analysis of the deposited data

How the results depend on the processing

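No paired analysis was possible because no list holds values per library; for the same reason no replicate could be left out. Requiring 2 summits per gene left 0 of the 3 genes tfiis-1-higher at 10 min, 3 of the 4 at 3 h and 0 of the 3 Col-0-higher at 3 h. Leaving out summits within 100 bp of a gene's start or end also left 0 Col-0-higher at 3 h, since all 3 lie within 59 bp of the end. The genes with tfiis-1-higher summits of 10 min and 3 h close together, 1 of 3 within 500 bp, were 0 within 250 bp and 3 within 1000 bp, an alternative added after the lists were seen. The other alternatives changed no count or median position of the 8 genes. Many of them could not have done so, because they act on lists without a summit of these genes, on genes with a single summit, or on HSP101, which has none, so this says little about stability. Among genes of the members' range of lengths, another alternative added after the lists were seen, the share called tfiis-1-higher was 7.65% at 0 min, against 4.90% over all genes, and the other shares were also higher.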

Other observations

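The genes without a call had called neighbours. The share of all genes with a called summit this near was not counted, so this is not shown to be particular to them. The summit nearest to HSP101 lay 1354 bp outside it, in AT1G74320 (tfiis-1-higher, 30 min), and 4 summits in 2 genes lay within 5000 bp. CLPB3 had 3 summits within 5000 bp, all in GAUT14 (AT5G15470), the nearest 2843 bp away. HSP60-3A had 10, all in RHD3 (AT3G13870), the nearest 2920 bp away. In Cpn60beta2 the Col-0-higher summit of 10 min and a tfiis-1-higher summit of 3 h were 6 bp apart. In related genes tfiis-1-higher at 30 min and 3 h, the nearest summits of these times were from 1 bp (AT5G49840 and AT5G20890) to 319 bp (AT3G60210) apart. How often such gaps occur over all genes was not counted, so neither observation is shown to be particular to these genes.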
